A study of Mus musculus with 14 samples.

Results

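UTX (KDM6A) occupancy was read in lineage-depleted bone marrow progenitors of wild-type mice, as the 7986 regions that were found in both UTX libraries and met no IgG island. A region was made by merging overlapping islands of the 2 UTX libraries, where an island is a stretch that SICER called as enriched in 1 library. The UTX libraries held 14496 and 18313 islands, the IgG library 3133, and all 11 libraries analysed here 224064. The cells were Lin- progenitors of C57BL/6 mice with the genotype UTX WT, depleted of lineage-positive cells with a magnetic kit, and UTX was precipitated with 1 Bethyl antibody in both libraries. The IgG control is labelled as part of a BCOR precipitation from cells of the same genotype. The labels also name an IgG control and an input of the UTX precipitation, which were not analysed here. H3K27ac and H3K27me3 islands of 2 WT libraries each, and of 2 UTX KO libraries each on the same strain, were set beside the UTX regions. The KO allele, its driver, and the age and number of mice are not given in the sources used here, nor whether libraries came from separate animals. Tests therefore measure the spread between libraries.

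UTX is an X-linked protein that removes methyl groups from H3K27me3, the mark of Polycomb-repressed genes. It is a subunit of the KMT2C and KMT2D COMPASS complexes, which methylate H3K4 at enhancers, and it also works with acetyltransferases and remodellers without its catalytic activity. H3K27ac marks active promoters and enhancers. In blood progenitors GATA and TAL1 factors drive the erythroid and megakaryocyte programs, while ETS factors act in stem, myeloid and lymphoid cells.

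UTX sat mainly at CpG-rich starts of active genes, and the promoter sequences of 5 bound and 2 unbound genes are given as examples. They are RefSeq sequences of build GRCm38.p6 (the assembly of mm10), each running from 250 bases before to 50 after the 5′ end, and were chosen after their values were seen. In the first 3 and the last 2, capitals mark CpG dinucleotides. Irf2bp2 encodes a transcriptional corepressor and had the strongest UTX region of these genes. Kmt2d encodes the methyltransferase that UTX works with, and Kdm6a encodes UTX. In Lyl1, which encodes a helix-loop-helix factor of stem cells, capitals mark the ETS core CCGGAA on either strand. In Tal1, a master regulator of red cell development, they mark the GATA motif AGATAA on either strand. Itga2b, the platelet integrin alpha IIb, and Cd34, a progenitor surface protein, carried H3K27ac in both WT libraries and met no island of either UTX library.
Irf2bp2 (bound; chr8:126593937-126594236, minus strand): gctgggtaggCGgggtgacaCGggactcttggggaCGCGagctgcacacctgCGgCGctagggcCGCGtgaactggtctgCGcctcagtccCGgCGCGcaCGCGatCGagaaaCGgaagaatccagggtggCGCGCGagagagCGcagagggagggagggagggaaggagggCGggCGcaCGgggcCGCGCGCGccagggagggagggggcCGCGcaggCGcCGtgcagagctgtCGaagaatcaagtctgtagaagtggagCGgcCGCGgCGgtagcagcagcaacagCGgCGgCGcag
Kmt2d (bound; chr15:98871156-98871455, minus strand): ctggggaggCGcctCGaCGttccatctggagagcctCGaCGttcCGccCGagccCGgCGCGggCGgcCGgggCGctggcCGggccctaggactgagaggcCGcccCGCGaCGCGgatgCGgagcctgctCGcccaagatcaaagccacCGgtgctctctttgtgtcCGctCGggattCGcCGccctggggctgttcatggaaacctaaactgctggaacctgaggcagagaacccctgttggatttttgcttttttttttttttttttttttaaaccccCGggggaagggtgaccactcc
Kdm6a (bound; chrX:18162325-18162624, plus strand): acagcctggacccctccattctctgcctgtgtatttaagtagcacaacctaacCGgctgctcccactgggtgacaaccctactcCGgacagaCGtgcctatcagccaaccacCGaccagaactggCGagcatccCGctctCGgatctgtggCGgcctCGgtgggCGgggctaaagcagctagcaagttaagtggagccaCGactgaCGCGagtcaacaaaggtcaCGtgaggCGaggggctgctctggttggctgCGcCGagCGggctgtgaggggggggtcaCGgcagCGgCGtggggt
Lyl1 (bound; chr8:84701207-84701506, plus strand): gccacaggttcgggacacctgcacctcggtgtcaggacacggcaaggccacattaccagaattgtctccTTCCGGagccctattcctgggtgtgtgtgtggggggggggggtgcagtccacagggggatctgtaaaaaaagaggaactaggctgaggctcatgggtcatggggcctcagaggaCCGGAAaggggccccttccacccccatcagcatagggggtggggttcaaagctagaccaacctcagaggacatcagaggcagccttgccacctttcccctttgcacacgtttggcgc
Tal1 (bound; chr4:115056176-115056475, plus strand): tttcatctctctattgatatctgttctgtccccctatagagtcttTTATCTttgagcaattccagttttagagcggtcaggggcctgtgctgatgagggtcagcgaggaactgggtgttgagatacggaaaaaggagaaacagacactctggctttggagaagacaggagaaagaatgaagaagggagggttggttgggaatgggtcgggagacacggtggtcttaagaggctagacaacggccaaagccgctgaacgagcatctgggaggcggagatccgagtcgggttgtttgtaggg
Itga2b (not bound; chr11:102469834-102470133, minus strand): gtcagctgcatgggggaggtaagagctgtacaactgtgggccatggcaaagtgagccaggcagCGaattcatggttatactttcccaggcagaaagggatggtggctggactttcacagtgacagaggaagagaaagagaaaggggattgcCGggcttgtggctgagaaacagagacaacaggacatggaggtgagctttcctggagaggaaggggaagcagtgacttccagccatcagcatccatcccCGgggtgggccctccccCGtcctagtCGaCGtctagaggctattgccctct
Cd34 (not bound; chr1:194938571-194938870, plus strand): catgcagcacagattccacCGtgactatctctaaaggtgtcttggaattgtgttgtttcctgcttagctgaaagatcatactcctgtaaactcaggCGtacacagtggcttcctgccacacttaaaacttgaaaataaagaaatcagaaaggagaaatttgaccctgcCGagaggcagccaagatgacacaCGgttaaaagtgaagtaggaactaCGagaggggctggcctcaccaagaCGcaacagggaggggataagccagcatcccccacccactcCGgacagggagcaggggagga
The CpG counts of these windows were 39 for Irf2bp2, 27 for Kmt2d, 21 for Kdm6a, 7 for Lyl1, 11 for Tal1, 6 for Itga2b and 7 for Cd34. The printed windows of the bound genes Lyl1 and Tal1 thus held few CpG. A gene is called bound within 2 kb of its 5′ end, and the Lyl1 region spans 9400 bp and is shared with Trmt1. Binding is therefore not placed on the printed bases. Lyl1 held 2 copies of the ETS core and Tal1 1 copy of the GATA motif, letters that 18.7% and 9.65% of all 21263 promoters hold in windows of this length.

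The 2 UTX libraries differed in depth, with 816567 and 1834418 reads in islands, against 154029 in IgG. Of the islands of UTX replicate 1, 8256 (57.0%) met an island of replicate 2, and 8075 (44.1%) of replicate 2 met replicate 1. Agreement followed the number of reads in an island. Of the 3624 islands of replicate 1 with fewest reads 19.3% met replicate 2, and of the 3624 with most reads 94.2%. Of the 4579 islands of replicate 2 with fewest reads 10.8% met replicate 1, and of the 4578 with most reads 86.2%. Merging gave 8012 shared regions, of which 26 (0.325%) met an IgG island and were left out. IgG islands met 214 of 6240 islands found in replicate 1 only (3.43%) and 16 of 10238 found in replicate 2 only (0.156%). Most overlap with IgG thus fell on islands that replicate 2 did not share. The strongest region left out lay 48837 bp from Rbbp6, and the 5 strongest left out were between genes, with H3K27me3 and without H3K27ac. UTX replicate 1 had 5.08% of its reads on unplaced contigs, replicate 2 0.175% and IgG 18.4%. Those contigs were not used.

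Strength is given as rpm, the reads in a region per 1000000 island reads of the library. It is what the regions were called on, so it describes them. The median was 72.3 rpm in replicate 1 and 68.1 rpm in replicate 2, from 59 and 125 reads. The mean of both libraries had a median of 70.9 rpm, and the middle 50% of regions lay between 51.7 and 98.4 rpm. Most regions had similar strength in both libraries, since 84.8% were within 2-fold. Of the others, 809 were higher in replicate 1 and 401 in replicate 2. Across the 7986 regions, which share the same libraries and islands, Pearson's r of log2 rpm was 0.616 and Spearman's rho 0.600. The strongest 10% of regions held 23.9% and 22.7% of the reads in all UTX-bound regions, so the signal was spread over many sites.

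UTX regions were short. Their median width was 2200 bp, and the middle 50% spanned 1600 to 3000 bp. Only 403 regions were 1 kb or less and 360 were 5 kb or more. Widths of single islands had medians of 1200 and 1600 bp in the UTX libraries, 1200 bp in IgG, and 3800 bp in both H3K27ac WT libraries. The marks were joined over larger gaps, since the smallest gap between islands was 800 bp in the histone libraries and 400 bp in UTX and IgG. Stronger regions were wider: over 5 classes of equal size, from the weakest to the strongest, the median width went from 1400 to 3600 bp, and reads per kilobase from 26.7 to 37.9 rpm.

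**Figure D1:**
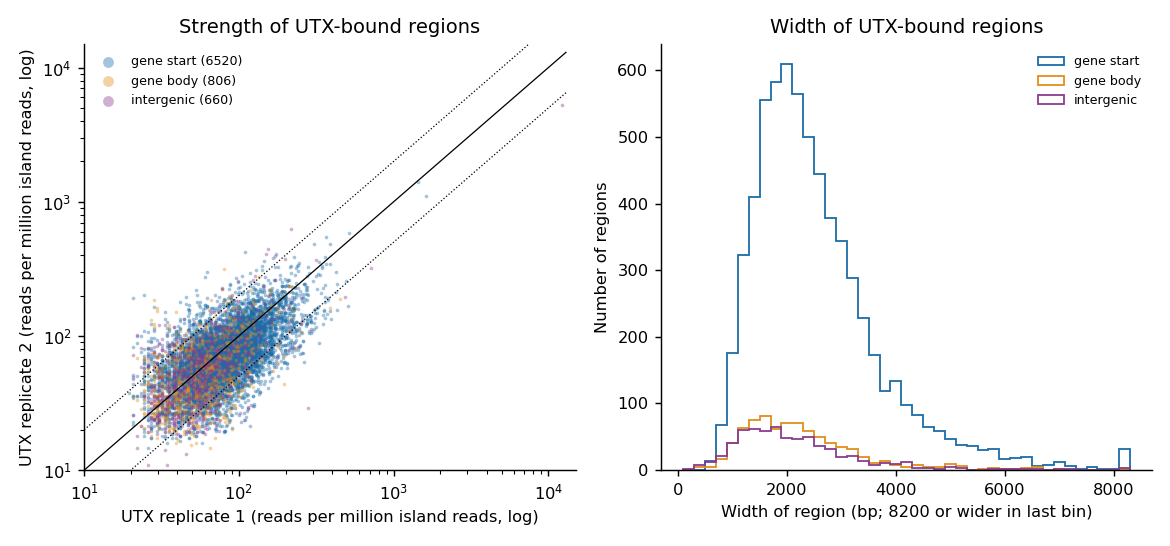
Left, strength of each UTX-bound region in UTX replicates 1 and 2, in rpm on log axes, coloured by position; the solid line is equality and the dotted lines are 2-fold. Right, number of regions by width in 200 bp steps for each position class. Most points lie between the dotted lines, 84.8% of regions, and widths peak near the median of 2200 bp.

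UTX lay at the starts of coding genes. A gene start is here the stretch within 2 kb of a 5′ end in the RefSeq promoter table, which covers 17492 of 21887 coding genes (79.9%). For the other 4395 genes, whose strand the tables do not give, both annotated ends were used. Of the 7986 regions 6520 (81.6%) met a gene start, 806 (10.1%) lay elsewhere in a gene and 660 (8.26%) between genes. Gene-start windows make up 3.81% of the genome spanned, counted in bases, whereas a region met a gene start by any overlap of at least 1 bp. Islands of a single UTX library were at gene starts far less often, with 22.7% for replicate 1 only and 21.4% for replicate 2 only, and IgG islands in 2.07%. Taking only genes with a 5′ end in the table, 67.9% of regions met a gene start.

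The regions lay close over the 5′ ends. The distance from region centre to the nearest 5′ end of the promoter table had a median of 486 bp over 7774 regions, and was under 500 bp for 50.6%. Regions at gene starts had a median of 75.2 rpm, those within genes 53.6 rpm and those between genes 54.1 rpm. Among gene-start regions 1094 (16.8%) covered the starts of 2 or more genes.

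Nearly all UTX-bound regions carried H3K27ac. Both WT H3K27ac libraries had an island at 7629 regions (95.5%), while H3K27ac found in both libraries covers 6.55% of the genome spanned. H3K27me3 in both WT libraries met 684 regions (8.56%), against 3.82% of the genome. Shares of regions count any overlap and shares of the genome count bases, so they are not like measures. By combination, 7181 regions had H3K27ac without H3K27me3 (median 72.9 rpm), 448 had both marks (63.1 rpm), 236 had H3K27me3 alone (46.4 rpm) and 121 had neither (35.2 rpm). IgG islands met H3K27ac in 0.766% and H3K27me3 in 8.84%. UTX regions and IgG islands thus met H3K27me3 at similar shares and H3K27ac at very different ones. No test was made of either difference.

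Among the strongest regions with both marks were Bahcc1, a chromatin reader (344 and 333 rpm), Bcl6, a repressor of lymphoid differentiation (230 and 228 rpm), Ptch1, the Hedgehog receptor (191 and 215 rpm), Fli1, an ETS factor (198 and 170 rpm) and Sox4 (168 and 184 rpm). These examples were picked after their values were seen.

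**Figure D2:**
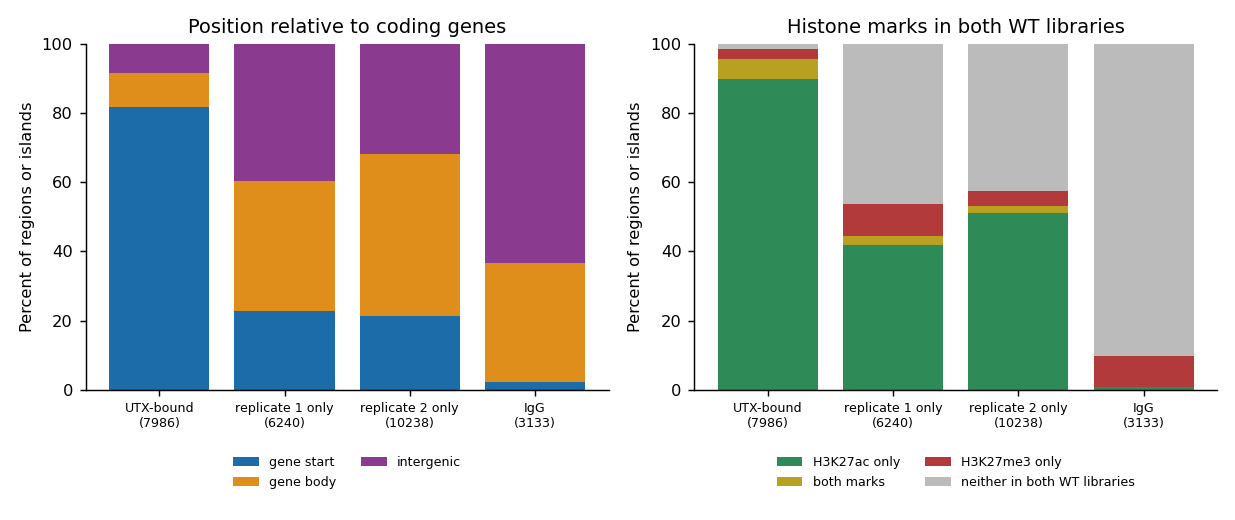
Share of UTX-bound regions, of islands found in 1 UTX library only, and of IgG islands, by position relative to coding genes (left) and by H3K27ac and H3K27me3 islands in both WT libraries (right); numbers under the bars count regions or islands. Gene starts make up 81.6% of UTX-bound regions and 2.07% of IgG islands, and H3K27ac with or without H3K27me3 is at 95.5% and 0.766%.

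Read from the genes, 7451 of 21887 coding genes (34%) had UTX at the start: 34.8% of those with a 5′ end in the promoter table and 31.2% of those read at both ends. Of the 11519 coding genes with H3K27ac in both WT libraries at the start, 63.5% were bound. Among the 17492 starts with a known 5′ end, UTX was at 66.2% of the 8370 with H3K27ac alone and at 48.2% of the 927 with both marks. It was at 3.12% of the 2593 with H3K27me3 alone and at 0.196% of the 5602 with neither. UTX occupancy thus followed acetylation. In 5 classes of H3K27ac level among marked starts, lowest first, the share bound went from 28.0% to 55.7%, 72.4%, 81.3% and 84.6%. Islands with few reads were shared by the UTX libraries less often, as given above, and the part of that in this order was not tested.

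The promoters bound by UTX were rich in CpG. Over the 300 bases the median GC content was 63.0% at UTX-bound promoters, and they held a median of 24 CpG. Promoters with H3K27ac and no UTX region had 57.0% and 14, those with H3K27me3 alone 61.0% and 16, and those with neither mark 46.3% and 3. Among H3K27ac promoters the share bound was 22.3% with 0 to 4 CpG, 36.9% with 5 to 9, 57.6% with 10 to 19, 72.4% with 20 to 29, and 85.2% with 30 or more. The order was seen at every H3K27ac level. In the class with least H3K27ac, 8.61% of promoters with fewer than 10 CpG and 43.8% of those with 20 or more were bound. In the class with most, the shares were 52.1% and 92.4%.

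**Figure D3:**
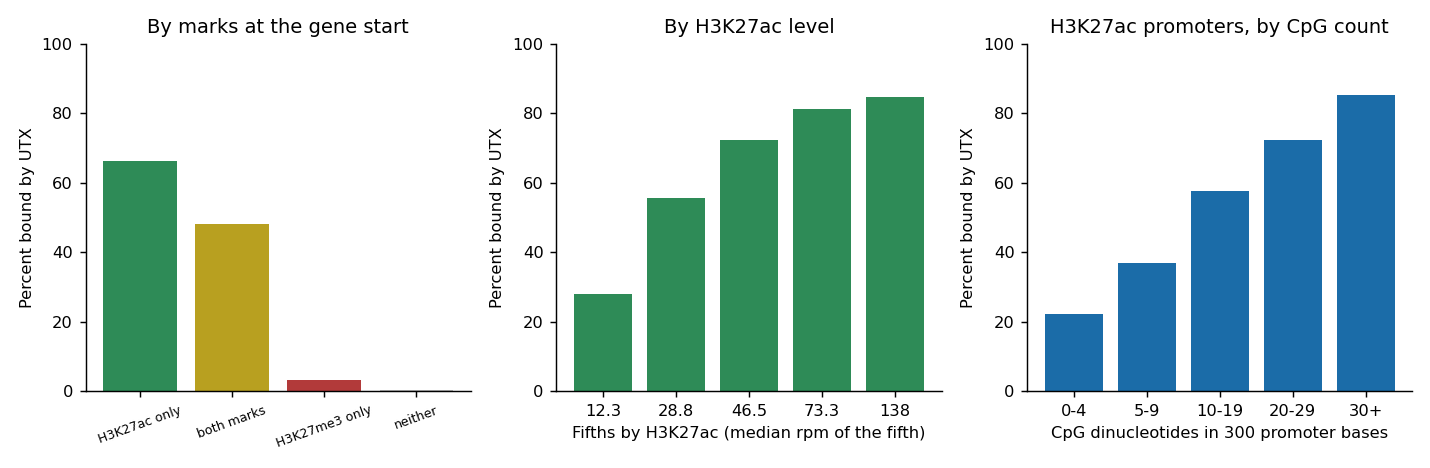
Percent of gene starts bound by UTX, by histone marks (left), by 5 classes of H3K27ac level labelled with the class median in rpm (middle), and, among promoters with H3K27ac, by the number of CpG dinucleotides in 300 bases (right). The share rises from 28.0% to 84.6% over the H3K27ac classes and from 22.3% to 85.2% over the CpG classes.

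Short motifs, searched on both strands in the same 300 bases, differed in frequency between bound and unbound promoters, and some of them contain CpG or many G and C. The ETS core CCGGAA was in 32.5% of UTX-bound promoters, 23.3% of H3K27ac promoters without UTX and 18.7% of all. The GC box GGGCGG was in 69.7%, 52.5% and 46.2%, and the NRF1 motif in 12.3%, 7.81% and 6.38%. The GATA motif AGATAA went the other way, with 5.21%, 8.55% and 9.65%, as did the TATA box TATAAA with 5.46%, 8.62% and 12.6%. ETS, GC box and NRF1 motifs each hold CG, GATA and TATA motifs none. The part of base composition was not tested.

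The strongest single region was a ribosomal RNA-like locus on chromosome 17 at chr17:39843001-39849200, annotated as Rn18s-rs5 and AY036118, with 12272 and 5305 rpm. It met H3K27me3 in both WT libraries, H3K27ac in WT replicate 1 only (267 rpm), and no IgG island. Another very strong region, at chr10:3111201-3118200 in the start window of 9230019H11Rik, held 1626 and 1108 rpm with neither mark in WT. Ribosomal RNA genes are present in many copies, so the value at this annotated copy is uncertain. The 80 densest regions (1%) met H3K27ac in 63.8%, against 95.9% of the others. Their strength in replicate 1 was a median of 2.41 times that in replicate 2, against 1.09 times for the others. Without them 7906 regions remained, with 81.8% at gene starts.

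Among gene starts the strongest regions were these, in order of mean strength. Hjurp, the chaperone that loads the centromeric histone CENP-A, led with 1427 and 1402 rpm over 21400 bp, the widest region. The 9230019H11Rik region given above came next, and then Irf2bp2 with 514 and 588 rpm over 14200 bp. Tspoap1, whose region holds the miR-142 gene, had 365 and 547 rpm, and Cdkn1b, the p27 inhibitor of cyclin-dependent kinases, 388 and 484 rpm. Setd1b, a H3K4 methyltransferase, reached 306 and 487 rpm. Sp3, a GC box factor, reached 492 and 257 rpm. Bcl11a, a zinc finger repressor of fetal globin and a lymphoid factor, reached 358 and 388 rpm. The region shared by Gm38469 and Arid2 had 386 and 342 rpm. Trim8, an E3 ligase, had 424 and 302 rpm, and Arid1a, with Arid2 a subunit of SWI/SNF remodellers, 364 and 343 rpm. Lyl1, in a region shared with Trmt1, had 327 and 353 rpm. All of these were high in both libraries. Hjurp had close values in the libraries and lay above Irf2bp2 and the genes after it in both, while Setd1b and Sp3, neighbours in this order, each differed more between libraries than from each other. Beyond coding genes, the nuclear noncoding RNA genes Malat1 (217 and 629 rpm) and Neat1 (314 and 366 rpm) had the strongest acetylated regions away from a coding start.

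UTX also sat at genes of its own machinery. Of 18 COMPASS and UTX partner genes 13 (72.2%) were bound, against 34% of all coding genes. Among the 16 with H3K27ac 81.25% were bound, against 63.5% of all coding genes with H3K27ac. The 14 in the promoter table held a median of 21.5 CpG. Of all H3K27ac promoters with 20 to 29 CpG 72.4% were bound, and the part of CpG content was not tested. After Setd1b came Kmt2d (351 and 228 rpm), Kmt2a (216 and 177 rpm), Rbbp5, a shared subunit (206 and 135 rpm), and Kmt2c (148 and 174 rpm). Kdm6a itself held 145 and 165 rpm at chrX:18161601-18166200, and its paralogue Kdm6b 52.7 and 72.5 rpm. Unbound were Ash2l, Hcfc1, Men1, Ncoa6 and Uty, the Y-linked paralogue. Of these, Men1 and Hcfc1 had an island in replicate 2 only, at 68.7 and 99.8 rpm.

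Other regulators of chromatin were bound at similar shares. Of 26 acetyltransferase and remodeller genes 22 were bound, led by Arid2, Arid1a, Brd2, a reader of acetylated histones (242 and 337 rpm), and Arid1b (282 and 297 rpm). Ep300 held 121 and 173 rpm, and Crebbp 46.5 and 87.8 rpm. Unbound were Chd4, Smarcb1, Smarcc1 and Smarcd2. Of 20 Polycomb genes 15 were bound, led by Jarid2 (170 and 260 rpm) and Ezh2, the H3K27 methyltransferase (131 and 183 rpm). Bcor, Cbx8, Ezh1, Rbbp7 and Ring1 were not bound. All 20 Polycomb genes and all 26 acetyltransferase and remodeller genes carried H3K27ac.

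UTX occupied most genes of the GATA and TAL1 complex, which drives red cell and platelet genes. Of its 12 genes 10 (83.3%) were bound, with Gata3 and Lmo2 left, against 34% of all coding genes. Among the 11 with H3K27ac 90.9% were bound, against 63.5% of all coding genes with H3K27ac. The 10 in the promoter table held a median of 22 CpG. For comparison, 72.4% of all H3K27ac promoters with 20 to 29 CpG were bound. In the class of gene starts with most H3K27ac 84.6% were bound. The part of either feature was not tested. Lyl1 led, followed by Zfpm1, the GATA cofactor FOG1 (242 and 306 rpm), Nfe2 (178 and 324 rpm), Tal1 (143 and 227 rpm) and Ldb1, the bridging factor (119 and 149 rpm). Lower were Klf1 (73.5 and 136 rpm), Gata2 (53.9 and 111 rpm), Gata1 (25.7 and 107 rpm) and Gfi1b (20.8 and 191 rpm). Gfi1b had the largest ratio between libraries in favour of replicate 2 of all regions with at least 50 reads in the higher library. Lmo2 had an island in replicate 2 only (132 rpm).

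Of 23 erythroid genes 9 (39.1%) were bound, while 22 had H3K27ac. Counting replicate 2 alone, 21 would be. Among the bound were Car2, a carbonic anhydrase gene (109 and 425 rpm), Tfrc, the transferrin receptor gene (53.9 and 202 rpm), Urod, Sptb, Epor, Steap3, Fech and Epb42. The globin genes Hba-a1 and Hbb-bs had an island in replicate 2 only, at 39.2 and 40.3 rpm. In all 12 erythroid genes (52.2%) had an island in replicate 2 only, against 8.28% of all coding genes. Of 16 megakaryocyte genes, 1 was bound, Itgb3 (93.1 and 155 rpm), and 7 (43.8%) had an island in replicate 2 only, while 15 had H3K27ac. Summed over all list members, replicate 2 held 2439 rpm at erythroid genes and replicate 1 783 rpm, a ratio of 3.12. The ratio was 4.48 for megakaryocyte genes, 1.62 for the GATA and TAL1 genes and 1.03 for ETS genes. The UTX libraries thus differed at erythroid and megakaryocyte genes by more than at the other lists. CpG content differed within the lists too. The 6 bound erythroid genes of the promoter table had a median of 15 CpG and the 9 unbound ones with H3K27ac a median of 4. The 11 unbound megakaryocyte promoters with H3K27ac had a median of 3. The labels name the same cells for both libraries. A difference in cell makeup between the preparations was not tested.

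ETS and stem cell factors were bound in part. Of the members with H3K27ac, UTX was at 76.5% of ETS genes and 54.5% of stem and progenitor genes. Of all coding genes with H3K27ac 63.5% were bound, so the stem and progenitor list was below that share. Of 21 ETS genes 13 were bound, among them Elf1 (202 and 195 rpm), Elf2 (201 and 173 rpm), Fli1, Etv6 (133 and 136 rpm), Spi1, which encodes PU.1 (82.1 and 67.6 rpm) and Erg (56.3 and 93.2 rpm). Ets1 was not bound and held no island in either UTX library. Of 23 stem and progenitor genes 12 were bound, led by Myc (184 and 285 rpm), Myb (95.5 and 271 rpm) and Runx1 (160 and 186 rpm). Of the 11 unbound genes 10 still carried H3K27ac, among them Cd34, Flt3, Gfi1, Hlf, Meis1, Mycn, Prdm16, Runx2 and Slamf1. Runx1 held 4 UTX-bound regions along its gene and Zfpm1 4, while Gse1, which encodes a subunit of a histone deacetylase complex, held 6.

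Few genes of the granulocyte and monocyte, B cell, and T and NK cell lists were bound. The shares were 23.1%, 16.7% and 0%, against 34% of all coding genes. H3K27ac was at 20 of 26, 13 of 18 and 3 of 15 members. Of the members with H3K27ac 30%, 23.1% and 0% were bound, against 63.5% of all coding genes with H3K27ac. The first of these lists also holds Mpo and Cebpa, which are among the progenitor markers below. Of its unbound members 3 had an island in replicate 1 only and 4 in replicate 2 only. Of 26 granulocyte and monocyte genes 6 were bound, Cebpa (157 and 91.6 rpm), Cebpb, Cebpd, Prtn3, Csf2ra and Ctsg, 3 of them transcription factor genes. Of 18 B cell genes 3 were bound, Ikzf1 (173 and 405 rpm), Vpreb1 and Foxo1. None of 15 T and NK cell genes was bound. The labelled cells were checked with markers. Of these, 7 of 12 progenitor markers were bound and all 12 carried H3K27ac, while 0 of 10 markers of mature cells were bound and 3 carried H3K27ac, among them Adgre1. Cd3e, Cd4, Cd8a, Ly6g, Ltf and Klrb1c were at 0 in both H3K27ac WT libraries. Of 12 stroma and endothelium genes 1 was bound, Col1a1 (33.1 and 23.4 rpm), and 4 had H3K27ac, of which 0 were bound.

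Few developmental genes were bound. Of 39 Hox genes 4 were bound: Hoxa3 and Hoxa6, which share a region, Hoxa9 (64.9 and 52.3 rpm) and Hoxa10. Of 32 Polycomb targets of other lineages 2 were bound. These shares were 10.3% and 6.25%, against 34% of all coding genes. H3K27ac was at 11 of the Hox genes, of which 3 were bound, and at 0 of the Polycomb targets. Lhx2, a homeobox gene, held 34.3 and 32.7 rpm, with H3K27me3 and without H3K27ac.

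Signalling and growth genes stood near the regulators. Of the members with H3K27ac, UTX was at 64.7% of AP-1 and immediate early genes and 73.9% of NF-kB and interferon genes. It was at 94.1% of KLF and SP genes and 83.3% of cell cycle and p53 genes. The share for all coding genes with H3K27ac was 63.5%. Of 18 AP-1 and immediate early genes 11 were bound, led by Zfp36, which destabilises cytokine mRNA (323 and 291 rpm), and including Jun, Junb and Jund but neither Fos nor Fosb. Of 23 NF-kB and interferon genes 17 were bound, led by Irf2 (301 and 258 rpm). Of 20 KLF and SP genes 16 were bound, after Sp3 Klf10 (278 and 201 rpm) and Klf13 (229 and 232 rpm). Of 21 cell cycle and p53 genes 15 were bound, led by Cdkn1b, with Cdkn2d (195 and 195 rpm), Rb1 (135 and 217 rpm) and Trp53 (148 and 202 rpm) among them. The unbound members were Cdk4, Cdk6, Cdkn1a, Cdkn1c, Cdkn2a and Cdkn2b.

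**Figure D4:**
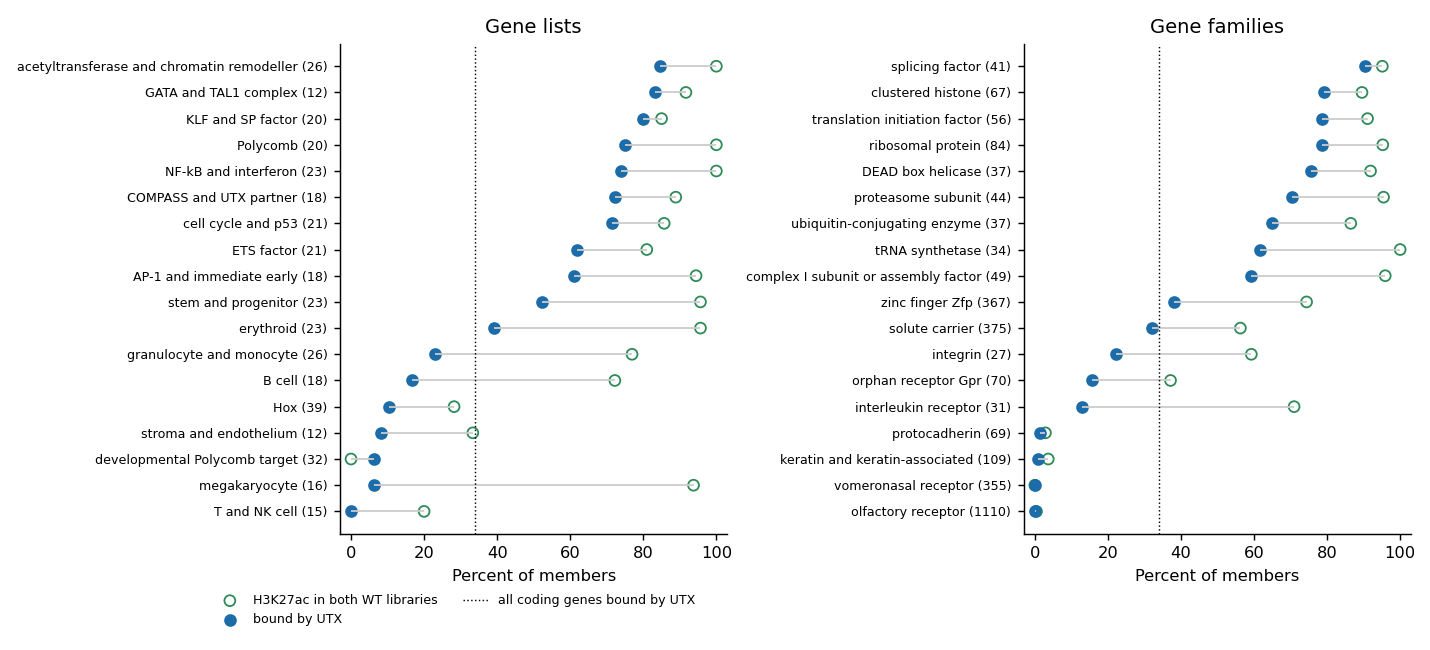
Percent of the members of each gene list (left) and gene family (right) bound by UTX (filled circles) and with H3K27ac in both WT libraries (open circles), with the number of members in parentheses; the dotted line is the share of all coding genes bound by UTX, 34.0%. Erythroid and megakaryocyte genes have H3K27ac in most members and UTX in 9 of 23 and 1 of 16.

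Among gene families grouped by symbol, those with housekeeping roles were bound most, against 34% of all coding genes. Of all coding genes with H3K27ac 63.5% were bound. Among members with H3K27ac, complex I (61.7%) and tRNA synthetase genes (61.8%) were near that share. The other families named here ran from 73.8% for proteasome genes to 94.9% for splicing factor genes. UTX was at 37 of 41 splicing factor genes, led by Hnrnpa0 (233 and 196 rpm), and at 66 of 84 ribosomal protein genes, led by Rpl37 (277 and 131 rpm). It was at 44 of 56 translation initiation factor genes, 28 of 37 DEAD box helicase genes, 31 of 44 proteasome genes, 24 of 37 ubiquitin-conjugating enzyme genes, 21 of 34 tRNA synthetase genes and 29 of 49 complex I genes. Clustered histone genes were bound at 53 of 67, in 27 regions because neighbours share them. The strongest region there, at H2ac8 and its neighbours, held 225 and 389 rpm.

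Families of tissue-restricted receptors and structural proteins were seldom bound. UTX was at 140 of 367 Zfp zinc finger genes and 120 of 375 solute carrier genes, near the share of all genes. It was at 6 of 27 integrin genes, 11 of 70 orphan receptor genes and 4 of 31 interleukin receptor genes, namely Il12rb1, Il17ra, Il3ra and Il6ra. It was at 1 of 69 protocadherin genes and 1 of 109 keratin genes, and at 0 of 1110 olfactory receptor and 0 of 355 vomeronasal receptor genes. Those last 2 families had H3K27ac at 5 and 0 genes. On the X chromosome 88 of 966 coding genes (9.11%) were bound, against 35.6% on autosomes. Among genes with H3K27ac the shares were 26.6% and 64.6%.

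UTX regions also covered microRNA genes. Of 1005 hairpin genes 67 (6.67%) lay in 64 regions, and 56 of those regions were at a coding gene start. The mature sequences of those at the strongest well-known loci are shown from RefSeq (GRCm38.p6), with the seed, bases 2 to 8, in capitals. miR-142 is a microRNA of blood cells, miR-21 is induced by growth signals, and let-7i belongs to the let-7 family.
miR-142a-5p (chr11:87756867-87756887, plus strand): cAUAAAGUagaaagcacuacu
miR-142a-3p (chr11:87756903-87756925, plus strand): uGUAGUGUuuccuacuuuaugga
miR-21a-5p (chr11:86584120-86584141, minus strand): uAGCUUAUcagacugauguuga
let-7i-5p (chr10:122985698-122985719, minus strand): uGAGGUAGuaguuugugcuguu
miR-191-5p (chr9:108568325-108568347, plus strand): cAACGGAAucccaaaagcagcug
miR-425-5p (chr9:108568789-108568811, plus strand): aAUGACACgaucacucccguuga
No 2 of these share a seed. The miR-142 region held 365 and 547 rpm. The region of miR-191 and miR-425, at the start of Dalrd3, held 200 and 185 rpm, and the let-7i region 160 and 184 rpm. The miR-21a region held 79.6 and 317 rpm. It was thus mainly a signal of replicate 2.

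The WT regions were then followed into UTX KO progenitors through H3K27ac, a readout the choice of regions did not use. Of 18820 H3K27ac regions with an island in all 4 libraries 6939 held a UTX-bound region. By edgeR's quasi-likelihood test with Benjamini-Hochberg adjustment at 0.05, 1302 of them were lower in KO and 639 higher. Over all tested regions 14% were lower and 12% higher (26% in all), and among those with UTX 18.8% and 9.21%. The median log2 fold change, KO over WT, was -0.07 with UTX and -0.00020 over all regions. Scaled to total island reads in place of TMM, 921 were lower and 965 higher, so that lower calls fell from 67.1% to 48.8% of calls. On that scale the medians were 0.04 with UTX and 0.12 over all regions. Per covered kilobase 123 were lower and 35 higher, and the medians were -0.064 with UTX and -0.071 over all regions. The regions with UTX thus lay below the median of all regions under both scalings of the reads, and above it per covered kilobase. Counts were 861 and 447 without WT replicate 1, 698 and 302 without WT replicate 2, 828 and 365 without KO replicate 1, and 888 and 333 without KO replicate 2.

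With TMM scaling more regions were lower where UTX was stronger in WT. Over 5 classes of UTX strength, from the weakest to the strongest, 180, 234, 245, 295 and 348 of about 1388 regions were lower, and 154, 141, 137, 110 and 97 were higher. Scaled to total island reads, lower calls went from 140 to 232 and higher calls from 208 to 155 between the first and last class. Per covered kilobase lower calls were 14, 19, 23, 34 and 33 and higher calls 4, 3, 10, 8 and 10, and the median was -0.093 in the weakest and -0.061 in the strongest class. The order of the medians thus did not hold on that scale. Stronger UTX regions also had more H3K27ac in WT, with medians of 37.6 CPM (counts per 1000000 reads in tested regions after TMM scaling) in the weakest and 136 CPM in the strongest class. The part of that level was not tested.

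H3K27ac fell at nearly all UTX-bound GATA and TAL1 genes. Of 10 tested 9 fell, with a median of -0.89, and Tcf3 did not pass (-0.41, edgeR adjusted p = 0.0628). Zfpm1 had 655 and 803 CPM in WT and 268 and 344 in KO (log2 fold change -1.26, SE 0.142, edgeR adjusted p = 0.00136). Tal1 had 380 and 399 CPM in WT and 133 and 111 in KO (-1.67). Gfi1b had 320 and 340 CPM in WT and 84.8 and 114 in KO (-1.73), and Gata1 88.1 and 95.4 CPM in WT and 42.7 and 42.9 in KO (-1.10). WT and KO libraries did not overlap at any of these genes. Gata2 fell (-0.68, edgeR adjusted p = 0.0287), but did not pass without WT replicate 1 (0.173) or without WT replicate 2 (0.110).

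All 8 UTX-bound erythroid genes tested fell, with a median of -1.19. Epor, the erythropoietin receptor gene, had 64.2 and 67.5 CPM in WT and 9.47 and 12.0 in KO (-2.63, SE 0.173, edgeR adjusted p = 0.000293). Car2 went from 451 and 516 CPM to 121 and 144 (-1.87). These 2 lists were chosen with earlier results of these libraries known, so their direction is not independent evidence. Per covered kilobase 5 of 10 GATA and TAL1 genes and 4 of 8 erythroid genes passed, all 18 with values below 0. Over all 23 erythroid genes, bound or not, H3K27ac summed to 1942 and 2323 rpm in WT and 653 and 683 rpm in KO, and 1 gene was without an island in each WT library and 12 and 8 in KO. In bulk samples fewer cells of a type and less of the mark per cell cannot be told apart. Over the 12 stroma and endothelium genes the sums were 162 and 267 rpm in WT and 608 and 621 rpm in KO, with 8 genes at 0 in each of the 4 libraries. Sums of other lists differed too. At the 16 megakaryocyte genes they were 591 and 648 rpm in WT and 266 and 204 rpm in KO. At the 26 granulocyte and monocyte genes they were 1839 and 1952 rpm in WT and 2754 and 2364 rpm in KO. At the 18 B cell genes they were 1143 and 1208 rpm in WT and 1763 and 2148 rpm in KO. The part of these differences in the results was not tested.

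**Figure D5:**
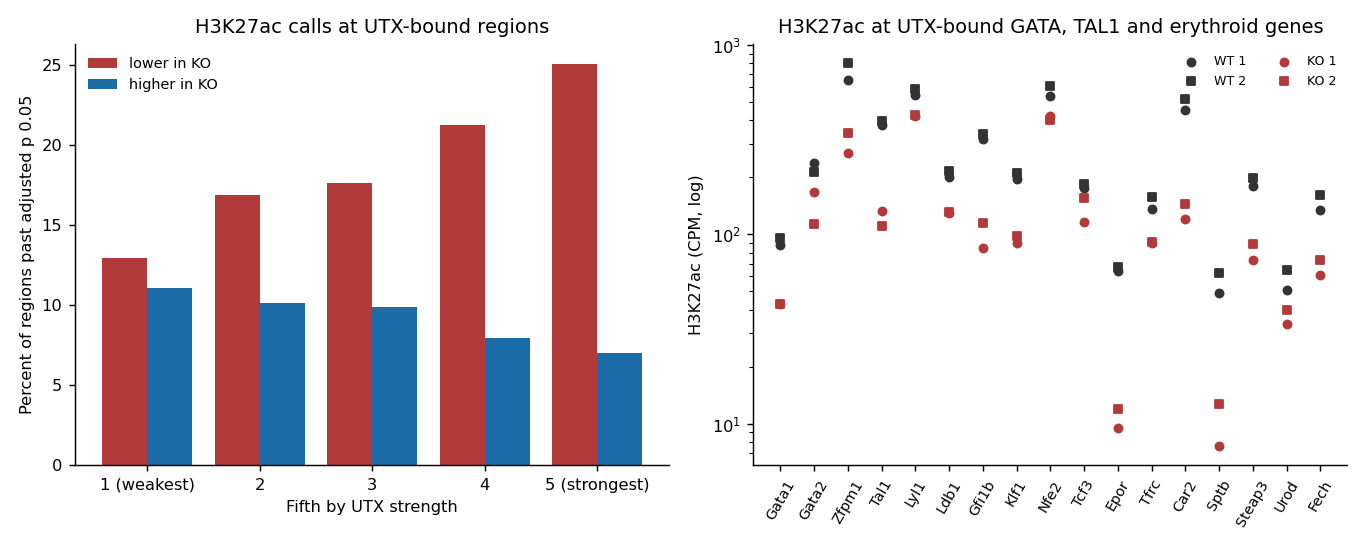
Left, percent of H3K27ac regions with a UTX-bound region that passed edgeR's test at an adjusted p of 0.05 as lower or higher in KO, by 5 classes of UTX strength in WT. Right, H3K27ac in CPM (log axis) at UTX-bound GATA, TAL1 and erythroid genes in each WT and KO library. Lower calls rise from 180 to 348 of about 1388 regions, and every gene shown has both WT values above both KO values.

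Other UTX-bound lists held calls in both directions, to be read against 14% lower and 12% higher over all regions. Of 11 tested regions at stem and progenitor genes 5 were lower, among them Kit (-0.51), Myc (-0.60), Mecom (-0.75) and the region shared by Hoxa9 and Hoxa10 (-0.66), and 1 was higher, Cbfb (0.54). Lower calls there numbered 2 without WT replicate 1 and 2 without WT replicate 2. Of 15 cell cycle and p53 genes 5 were lower, the cyclin D genes Ccnd1 (-1.45), Ccnd2 (-0.80) and Ccnd3 (-0.50), Rb1 (-0.29) and Trp53 (-0.75), and 1 was higher, Bbc3 (0.34). Lower calls there numbered 3 without WT replicate 1 and 3 without WT replicate 2. Per covered kilobase neither list had a lower call. Of 13 COMPASS and UTX partner genes 1 was lower, Setd1a (-0.35), and 0 were higher. No COMPASS gene was lower under scaling to total island reads, per covered kilobase, without WT replicate 1, without WT replicate 2 or without KO replicate 1, and 1 was higher without WT replicate 1. Of 11 AP-1 genes 4 were higher, Egr2 (1.28), Fosl2 (0.62), Zfp36 (0.51) and Btg2 (0.41), and 0 lower. Of 13 ETS genes 4 were higher and 1 lower. Per covered kilobase the AP-1 and ETS lists had 0 calls in either direction. Of 19 tested regions among the 20 strongest gene starts 4 were lower and 1 higher. Bcl11a went from 812 and 953 CPM in WT to 454 and 477 in KO (-0.92, edgeR adjusted p = 0.000878), and Zfp36 rose from 336 and 337 to 460 and 500. Kdm6a, the gene altered in KO, did not pass (187 and 110 CPM in WT, 168 and 162 in KO, log2 fold change 0.16, edgeR adjusted p = 0.623), except without WT replicate 1 (0.60). Its islands do not show which exons were removed.

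The largest falls at UTX-bound regions were at Slc22a23, a transporter gene (213 and 292 CPM to 16.3 and 12.4, log2 fold change -4.12), Tlcd4 (-3.70), Abcg4, a sterol exporter gene (-3.30), a region nearest to Cldn13 (-3.19) and Dnaja4 (-3.18). The largest rises were at Zfp827 (9.17 and 7.59 CPM to 37.5 and 41.4, 2.24), Id2, an inhibitor of helix-loop-helix factors (2.16), Maf (2.04), Ppm1e (2.03) and Eml5 (1.98). All 10 passed edgeR's test, with adjusted p up to 0.00242. Per covered kilobase Dnaja4, Id2, Maf and Eml5 did not pass.

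By presence of islands, H3K27ac was in both WT and both KO libraries at 7516 UTX-bound regions. It was in both WT and neither KO library at 57, among them Fhdc1 and Sowaha, and in neither WT and both KO libraries at 25. H3K27me3 was in all 4 libraries at 506 regions, in both WT and neither KO library at 85, with Fli1 among them, and in neither WT and both KO libraries at 23, with Bcl11a the strongest. As shares, 12.4% of the 684 UTX-bound regions with H3K27me3 in both WT libraries had none in KO, against 15.9% of all 11304 H3K27me3 regions. Of the 583 with H3K27me3 in both KO libraries 3.95% had none in WT, against 5.84% of all 8839. For H3K27ac 0.747% of UTX-bound regions had none in KO, against 12.7% of all H3K27ac regions. Losses thus outnumbered gains over all regions too. The 2 H3K27ac shares are not of like sets, since one counts UTX regions and the other whole H3K27ac regions. Among the tested H3K27ac regions the median in WT was also higher with UTX, 66.6 CPM against 20.1 CPM without. The part of that level in the 2 shares was not tested. The KO H3K27me3 libraries had fewer islands in all, 15743 and 14665 against 18847 and 20412 in WT.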

How the data were processed

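Chromatin immunoprecipitation sequencing was analysed in 11 libraries, 2 each of UTX, WT H3K27ac, KO H3K27ac, WT H3K27me3 and KO H3K27me3 and 1 IgG. The IgG and the input of the UTX precipitation and a H3K27ac input were not analysed here. The deposited files list islands with read counts per island, called by SICER on mm10 per the submitters' processing notes. The aligner, tool versions, duplicate handling and control subtraction are not given in the sources used here. Island widths were multiples of 200 bp. Reads outside islands were not analysed, so depth is given as island reads, and a gene without an island is not shown to lack the protein.

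Islands overlapping by at least 1 bp were merged, and counts were divided by island reads on chromosomes 1 to 19, X and Y (python 3.11.15, pandas 2.3.3, numpy 2.4.6, matplotlib 3.10.9). The KO comparison used edgeR 4.0.16 in R 4.3.3 with TMM scaling on the 2 WT and 2 KO H3K27ac libraries. On simulated data with 18820 regions it recovered 74% of 100 regions changed 2-fold and 100% of 100 changed 4-fold. It also called 10 of 18620 unchanged regions. The simulated regions shared a common dispersion and few were changed, so these values do not give the recovery or error in the real data. DESeq2 1.42.0 was an alternative. Members and lists (384 entries, 378 genes, 1 unmatched) were chosen with earlier results of these data known. Genes were named by rank: the 20 strongest regions and gene starts, the widest, those with the largest library ratios, the strongest list members, and the 5 largest falls and rises in KO. Examples outside these ranks were chosen after their values were seen. A few list members are not reported here by name.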

Additional observations from a re-analysis of the deposited data

How the results depend on the processing

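The limits come first. Islands are thresholded, so weak binding is missed, and the IgG library holds 154029 island reads, fewer than either UTX library. The UTX regions rest on 2 libraries and their WT state only, since no UTX library of KO cells was analysed here. Alternatives with both libraries kept the number of regions between 5346 and 8012. Without either UTX library the count was 14257 to 18271 regions, with 47.8% to 56.6% at gene starts, a median of 40.9 to 51.4 rpm and a median width of 1200 to 1600 bp. With only genes that have a 5′ end in the table, a choice added after seeing the data, 67.9% were at gene starts. With only UTX islands of at least their library's median reads 88.3% were at gene starts. With only such islands of the marks 87.3% had H3K27ac and 6.22% H3K27me3. With a mark required over 50% of the region H3K27ac was at 94.9%. Scaled to the reads in UTX-bound regions in place of all island reads, the median strength was 107 rpm. Without either UTX library the bound genes numbered 9 to 21 erythroid, 3 to 8 megakaryocyte, 9 to 10 granulocyte and monocyte, 4 to 5 B cell, 1 to 2 T and NK cell, 7 to 8 Hox, 4 to 5 developmental, and 1 to 2 stroma. With 5 kb windows 3 megakaryocyte genes were bound.

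For H3K27ac in KO, higher calls at UTX-bound regions were 965 under scaling to total island reads, 35 per covered kilobase and 302 to 447 when 1 library was left out. Lower calls were 123 per covered kilobase and 698 to 888 when 1 library was left out. Covered width enters the per-kilobase values by construction. Setd1b changed sign to 0.040 under total scaling and 0.18 per covered kilobase, and Kdm6a to -0.17 without WT replicate 2. Without WT replicate 1 Kdm6a passed, at 0.60. The cause of the other changes was not tested. Replicate numbers did not pair WT with KO libraries (correlation 0.0468), and a replicate block gave 698 higher and 1355 lower.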
